A study of Homo sapiens with 12 samples.

Results

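TYRO3 WT was compared with TYRO3 ΔADAM, a receptor with substitutions at its predicted ADAM cleavage sites, in 6 of the 12 RNA-seq libraries of the series, 3 for each receptor. The libraries were chosen by their labels alone, and each WT library was paired with the ΔADAM library of the same numbered experiment (1, 2 or 3). All 12 libraries came from WM-266-4, an established human melanoma cell line, in which endogenous TYRO3 had been knocked down stably with a lentiviral construct. The cells were kept in medium with serum and puromycin, transfected with jetPRIME and left without serum overnight before RNA was extracted. The plasmids were pEZY-myc-his vectors carrying wild-type TYRO3, TYRO3 ΔADAM (P408A/L409P/G419P), TYRO3 ΔGS (I449A, the gamma-secretase site) or, as the control, GFP. Transfection was transient, so a library averages cells that took up the plasmid and cells that did not, and the data come from a single cell line. In such bulk RNA, fewer cells expressing a gene and less RNA per cell cannot be told apart.

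TYRO3 is a receptor tyrosine kinase of the TAM family, named after TYRO3, AXL and MERTK, whose ligands are GAS6 and protein S (PROS1). ADAM metalloproteases can cut such a receptor outside the membrane and shed its ectodomain, after which gamma-secretase cuts the remaining fragment within the membrane and releases the soluble intracellular domain. TYRO3 WT can thus be present as the full-length receptor, the membrane-bound fragment and the soluble domain, whereas a receptor that ADAM proteases cannot cut would stay full length. The comparison asks which transcripts differ between cells given a receptor that can be shed and cells given a receptor made resistant to shedding. From Western blots and imaging in this cell line, the paper proposes that TYRO3 ΔADAM is functional and less readily cut than WT. No protein was measured in these libraries, so the extent of shedding in them is not known.

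The sites can be read in the reference TYRO3 coding sequence, which has 890 codons in the GENCODE 29 transcript TYRO3-201 on chromosome 15 (GRCh38, plus strand). They are shown because they are the only designed difference between the 2 receptors. Each line holds 10 codons, 5′ to 3′, with the codons numbered in the labels' substitutions in capitals, and the last line gives the ΔGS site for reference.
Codons 405 to 414, P408A and L409P, exon 9 of 19, chr15:41568983-41569012: tggagtcagCCACTGgtggtctcttctcat
Codons 415 to 424, G419P, exons 9 and 10, chr15:41569013-41570046 with an intron between: gaccgtgcaggcCAGcagggccctcctcac
Codons 445 to 454, I449A, exon 10, chr15:41570107-41570136: gccctggccctcATCctgcttcgaaagaga
Codons 408, 409 and 449 encode the proline, leucine and isoleucine that the labels name. Codon 419 of the reference is CAG, for glutamine, and the glycine codon GGC stands just before it, as codon 418. The paper names this predicted site as A418/G419, an alanine followed by a glycine. In the reference that pair is gca then GGC, just before the capitalised CAG. By its residues, G419 of the paper and labels is thus codon 418 of the reference. The sequence of the plasmid was not analysed here, so the codon that carries the proline was not read directly. The substitutions touch little of the annotated transcript. In TYRO3-202, the transcript that took most TYRO3 reads, 66 of 3846 stretches of 31 bases (1.72%) overlap the 3 codons as numbered in the labels. The share in the RNA made from the plasmid, whose sequence was not analysed, was not computed.

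The 6 libraries held between 18365999 (WT, experiment 2) and 34412887 (ΔADAM, experiment 1) estimated fragment counts, and the GFP library of experiment 1 was the shallowest of the series at 4008293. Mitochondrially encoded transcripts took 4.30% to 6.76% of the counts of the 6 libraries. The melanocyte lineage genes MITF, SOX10, PMEL and DCT were expressed in all of them. Among markers of other cell types, 2 of 6 keratinocyte, 4 of 6 epithelial, 5 of 6 fibroblast, 2 of 6 leukocyte and 3 of 6 endothelial genes passed the filter on low counts. Their summed levels overlapped between the receptors, for example 33.9 to 37.0 CPM (counts scaled to library size) in WT and 31.8 to 37.6 in ΔADAM for the leukocyte genes, almost all of it CD68. The epithelial genes summed to 143 to 221 CPM in WT and 177 to 213 in ΔADAM. Several markers that passed were thus clearly expressed with both receptors. KRT10 had 34.2 to 40.5 CPM in WT and 35.8 to 43.1 in ΔADAM. For KRT8 the ranges were 15.8 to 28.9 and 17.2 to 26.1, and for COL1A1 7.90 to 24.4 and 8.07 to 22.1. KDR had 13.9 to 31.7 CPM in WT and 17.1 to 28.6 in ΔADAM. PTPRC, KRT5, KRT14, EPCAM and CDH5 did not pass the filter.

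TYRO3 was highly expressed from both plasmids, and its level did not separate them. The WT libraries had 3064, 1791 and 1369 CPM in experiments 1, 2 and 3, and the ΔADAM libraries had 3284, 1215 and 1181 CPM. The mean was 2075 ± 882 CPM for WT and 1893 ± 1204 CPM for ΔADAM (SD, n = 3 each). The ranges overlapped, and for both receptors experiment 1 was the highest. WT was 0.10 lower on the log2 scale in experiment 1, and higher by 0.56 in experiment 2 and by 0.21 in experiment 3. The fitted log2 fold change of WT over ΔADAM was 0.22 (SE 0.22, 95% interval -0.28 to 0.71, adjusted p = 1 with edgeR), so the interval reached past 1.5-fold on the WT side. The ΔGS libraries had 3694, 1437 and 1648 CPM and the GFP libraries 53.1, 47.3 and 56.6 CPM, which places every TYRO3 library far above the knock-down background.

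The other TAM receptors and the ligands did not pass the test either. AXL, a TAM receptor linked to the invasive state of melanoma, had 194 (experiment 1), 130 (experiment 2) and 70.0 CPM (experiment 3) in WT and 185, 97.9 and 101 CPM in ΔADAM. Its fitted log2 fold change was -0.0093 (SE 0.15), with the experiments at 0.06, 0.41 and -0.53. MERTK, best known for the uptake of dying cells, had 6.59, 12.3 and 17.1 CPM in WT and 6.87, 12.6 and 10.8 CPM in ΔADAM, a log2 fold change of 0.22 (SE 0.20) that came from experiment 3. PROS1 was close to equal, at 61.4, 62.3 and 68.3 CPM in WT and 61.8, 61.7 and 64.5 CPM in ΔADAM, with a 95% interval of -0.14 to 0.19. GAS6 was scarce, at 2.31 to 6.32 CPM in WT and 3.20 to 6.61 CPM in ΔADAM. In TPM, a scale that divides by transcript length and so allows genes to be compared, the level of TYRO3 stood at 779.6 to 1687 in WT and 640.5 to 1789 in ΔADAM, against 26.6 to 72.6 and 36.5 to 70.3 for AXL.

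**Figure D1:**
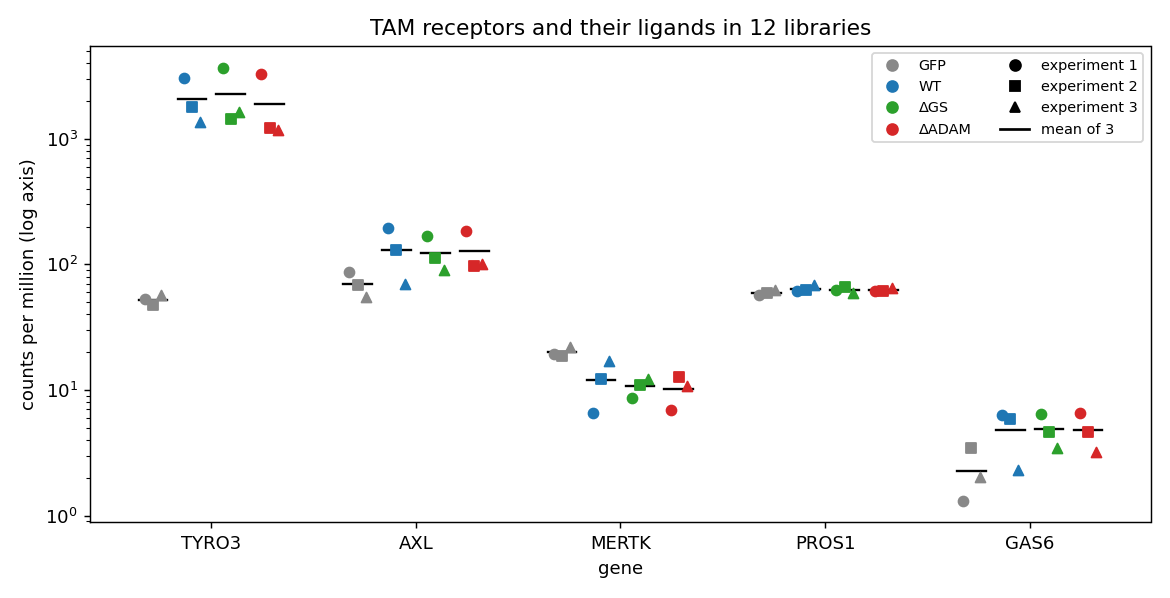
Levels of the 3 TAM receptors and their 2 ligands in the 12 libraries, in CPM on a log axis. Symbols give the experiment, colours the plasmid and black lines the mean of 3 libraries. TYRO3 lies between 1181 and 3694 CPM in every library given a TYRO3 plasmid, and the WT and ΔADAM points overlap for all 5 genes.

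The proteases that would cut TYRO3 were expressed at like levels. ADAM10, the main constitutive sheddase, had 151, 175 and 152 CPM in WT and 151, 163 and 141 CPM in ΔADAM (log2 fold change 0.08, SE 0.10). ADAM17, the sheddase that stimuli activate, had 155, 123 and 128 CPM in WT and 154, 127 and 153 CPM in ΔADAM (log2 fold change -0.11, SE 0.12). The 14 tested genes of the ADAM sheddases, their tetraspanin and rhomboid partners and their TIMP inhibitors spanned log2 fold changes of -0.34 (TSPAN5) to 0.19. The 6 gamma-secretase subunits spanned -0.22 (APH1B) to 0.07, and the 95% interval of all 6 lay within 1.5-fold. No member of either list was called.

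Over all genes, the number that differed between WT and ΔADAM was 0 with edgeR and 4 with DESeq2, the tool named in the methods of the study. Both were held to the thresholds of the study, an adjusted p of at most 0.05 together with a change of more than 1.5-fold. In edgeR's quasi-likelihood test with the experiment as a block, 0 of 15098 genes (0%) were called, and the smallest adjusted p was 0.189. At an unadjusted p of at most 0.05, 71 genes (0.47%) were higher and 87 genes (0.576%) lower in WT, 158 in all. Both shares together were well below what a p of at most 0.05 would mark if no gene differed. The edgeR test was thus conservative here, and the reason was not tested. Of the 4 genes called by DESeq2, 1 was higher and 3 were lower, and 105 genes had an unadjusted p of at most 0.05 with it. WT was higher than ΔADAM in each of the 3 experiments for 1587 genes (10.5%) and lower in each for 1502 genes (9.95%). The WT and ΔADAM libraries did not overlap for 437 genes (2.89%).

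The fit bounds how large most differences can be. Among 10303 genes with a mean log2 CPM over 3, the median absolute log2 fold change was 0.05. The 95% interval lay within 1.5-fold either way for 9902 of them (96.1%), and within 2-fold for 10247 (99.5%). Over all 15098 genes, weakly expressed ones included, the interval lay within 1.5-fold for 10978 (72.7%) and within 2-fold for 13184 (87.3%). For the remaining genes the interval reached beyond these bounds.

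**Figure D2:**
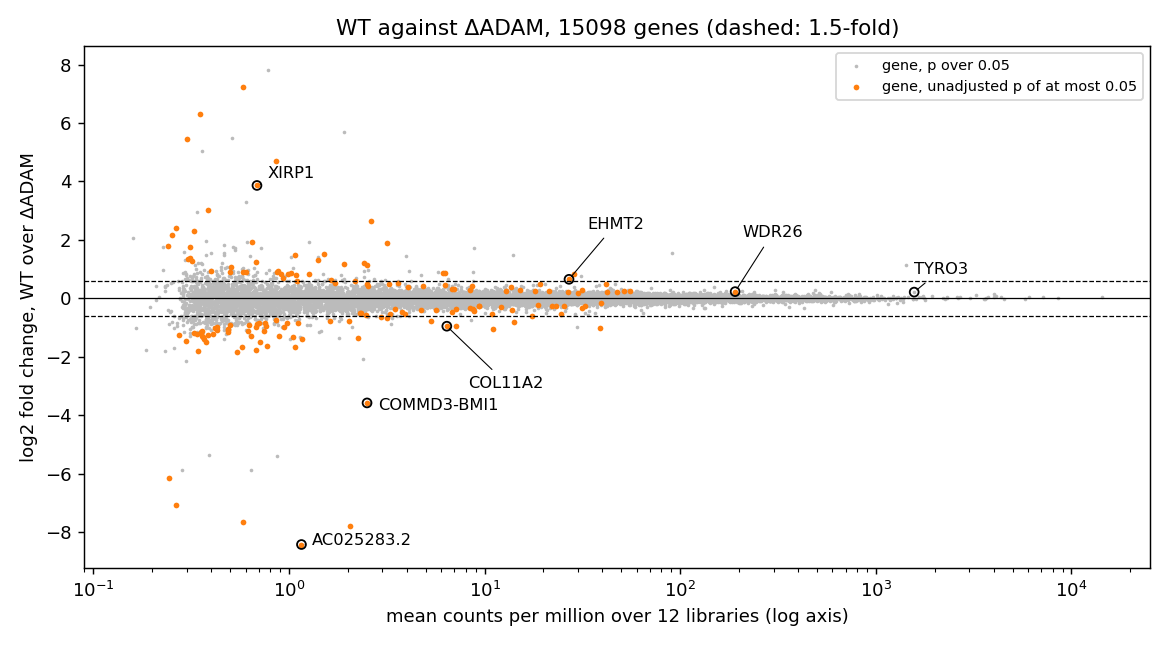
Log2 fold change of WT over ΔADAM against the mean level over the 12 libraries (CPM, log axis) for 15098 genes. Orange points are the 158 genes with an unadjusted p of at most 0.05, none of which is called by edgeR with the filter on low counts, and dashed lines mark 1.5-fold. The large fold changes sit at the left, among genes with few counts, and TYRO3 sits near the line of no difference.

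WT and ΔADAM libraries of the same experiment differed less from each other than libraries of either receptor did between experiments. The difference in log2 CPM between WT and ΔADAM had an SD over the 10303 genes of 0.129, 0.157 and 0.236 in experiments 1, 2 and 3. Between WT libraries of different experiments the SD was 0.276 to 0.390, and between ΔADAM libraries of different experiments 0.307 to 0.351. For context, GFP and WT libraries of the same experiment differed by 0.539, 0.277 and 0.246, and GFP and ΔADAM libraries by 0.516, 0.280 and 0.386, the first of each involving the shallow GFP library. WT and ΔGS differed by 0.152, 0.157 and 0.381.

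**Figure D3:**
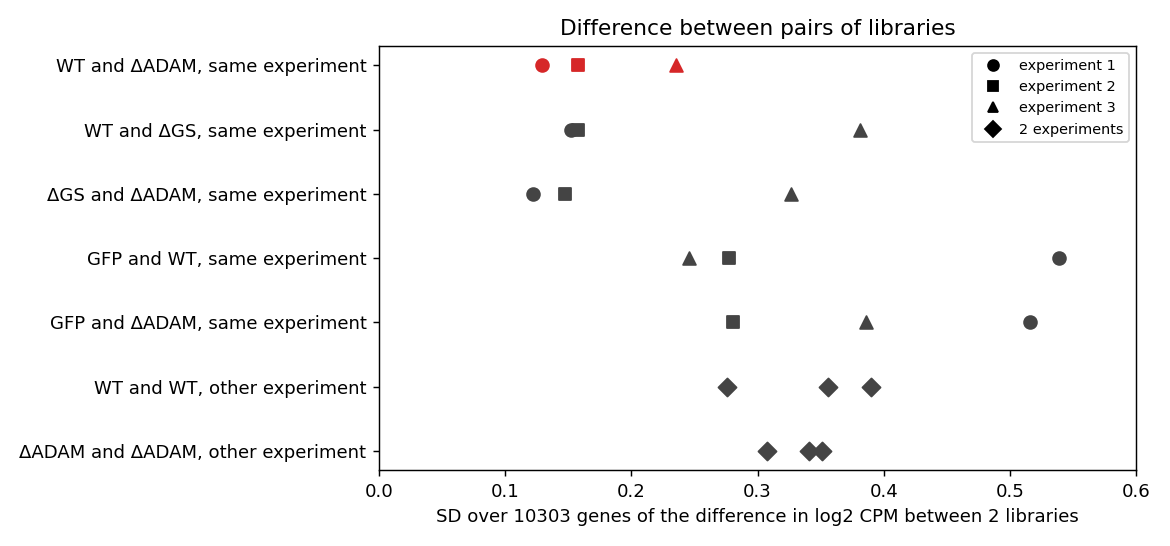
SD over 10303 genes of the difference in log2 CPM between pairs of libraries, by the plasmids of the pair and by whether the pair shares an experiment. The WT and ΔADAM pairs (red, 0.129 to 0.236) lie to the left of every pair of the same receptor from 2 experiments (0.276 or more).

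What differed between WT and ΔADAM in an experiment was mostly not what differed in another. More than 1.5-fold differences were found for 15 genes up and 17 down in experiment 1, 13 up and 29 down in experiment 2, and 138 up and 141 down in experiment 3, so experiment 3 held most of them. As experiments 1 and 2 held few of the 317 genes past 1.5-fold in any experiment, few of the 317 could be shared. In opposite directions in different experiments, 14 of the 317 passed it. In the same direction, 20 passed it in at least 2 experiments and 2 in all 3. These 2, named after their values were seen, were lower in WT: AC116366.3, described with the leading genes, and the zinc transporter SLC39A7, with differences of -0.76, -1.53 and -0.77 and 81.1% of its counts on copies outside the primary assembly. Across the 10303 genes, the WT minus ΔADAM differences of experiments 1 and 2 had a Pearson correlation of -0.18, those of experiments 1 and 3 of -0.27 and those of experiments 2 and 3 of 0.11. These pairs share no library, and genes are not independent of each other, so the values are given as descriptions.

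In several gene lists most members had the same sign within an experiment, and that sign changed between experiments. Cholesterol synthesis was lower in WT for 21 of 23 genes in experiment 1 and 22 of 23 in experiment 2, and higher for all 23 in experiment 3. HMGCS1, an early enzyme of that pathway, had 82.8, 238 and 297 CPM in WT and 104, 329 and 204 CPM in ΔADAM. The list's fitted median log2 fold change was -0.05, beside 0.0049 over all genes, and none of its genes was called.

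The amino acid response genes, targets of ATF4 that rise when amino acids are short, were higher in WT for 25 of 26 genes in experiment 1, lower for 21 of 26 in experiment 2 and lower for all 26 in experiment 3. ATF4 itself had 499, 254 and 453 CPM in WT and 432, 350 and 761 CPM in ΔADAM. CHAC1, a glutathione-degrading enzyme induced by ATF4, had 44.6, 8.40 and 33.9 CPM in WT and 28.1, 18.9 and 107 CPM in ΔADAM. MTHFD2, a mitochondrial folate enzyme, had the smallest p of the list (log2 fold change -0.28, SE 0.16, unadjusted p = 0.106, adjusted p = 1 with edgeR). The list had the lowest median of all lists, -0.15, from medians of 0.16, -0.21 and -0.46 in experiments 1, 2 and 3, and 0 of its 26 genes were called.

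The interferon-stimulated genes were lower in WT for 37 of 39 genes in experiment 1 and 37 of 39 in experiment 2, and higher for 32 of 39 in experiment 3. IFIT1, an antiviral RNA-binding protein, had 85.7, 305 and 106 CPM in WT and 99.5, 404 and 79.9 CPM in ΔADAM. OAS1 and XAF1 were among 6 genes of the list that were lower in WT in every experiment (beside 9.95% of all genes). OAS1, a sensor of double-stranded RNA, had 10.9, 27.5 and 4.71 CPM in WT and 13.4, 37.8 and 5.57 CPM in ΔADAM, a log2 fold change of -0.34 (SE 0.21). XAF1, an inhibitor of the anti-apoptotic protein XIAP, had 18.2, 35.1 and 6.52 CPM in WT and 22.6, 44.6 and 9.60 CPM in ΔADAM, a log2 fold change of -0.39 (SE 0.24). Both had an adjusted p of 1 with edgeR, and both varied more between experiments than between the receptors.

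The melanocyte lineage genes were lower in WT for 12 of 20 genes in experiment 1 and 14 of 20 in experiment 2, and higher for 17 of 20 in experiment 3. MITF, the master regulator of the lineage, had 94.97, 230 and 254 CPM in WT and 105, 214 and 157 CPM in ΔADAM (log2 fold change 0.25, SE 0.22). DCT, a pigment enzyme, had 74.5, 214 and 380 CPM in WT and 88.1, 241 and 203 CPM in ΔADAM. The transcription factor SOX10 and the endothelin receptor EDNRB had the smallest p of the list, with log2 fold changes of 0.18 (SE 0.11) and 0.15 (SE 0.09). None of the 20 genes was called, and the invasive melanoma state genes, with a median of -0.0038, gave 0 of 18.

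Genes that report on signalling below a receptor tyrosine kinase gave small differences. The 20 ERK output genes, immediate targets of that pathway and its feedback inhibitors, had a median of -0.01, and were higher in WT for 17 genes in experiment 1 and lower for 18 in experiment 3. FOS had 10.1, 13.3 and 9.10 CPM in WT and 8.94, 8.92 and 8.73 CPM in ΔADAM, so the libraries did not overlap, with a log2 fold change of 0.28 (SE 0.15) and an unadjusted p of 0.103 in edgeR. DUSP6, a phosphatase that limits ERK, had a log2 fold change of -0.10 (SE 0.11). The 16 STAT3 targets and SOCS genes had a median of 0.10, with SOCS3 at 49.6, 46.7 and 30.8 CPM in WT and 36.6, 37.5 and 31.03 CPM in ΔADAM (log2 fold change 0.25, SE 0.15). PIM2, a survival kinase, was at 0.12 (SE 0.10).

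Among the 14 PI3K-AKT and FOXO target genes, TXNIP was the only tested gene in any of the lists with an unadjusted p of at most 0.05 (0.029, adjusted p = 1 with edgeR). TXNIP, an inhibitor of glucose uptake and thioredoxin, had 39.4, 13.9 and 17.1 CPM in WT and 41.9, 18.6 and 35.5 CPM in ΔADAM. It was lower in WT in each experiment, with differences of -0.09, -0.42 and -1.05, and the ranges overlapped. The cell cycle inhibitor CDKN1B was at -0.11 (SE 0.08). The YAP and TAZ targets had a median of -0.05, with AJUBA at -0.26 (SE 0.18) and CTGF at -0.22 (SE 0.17), both of them level in experiments 1 and 2 and lower in experiment 3. The NF-kB and inflammatory genes had a median of -0.07, with the feedback inhibitor TNFAIP3 at 0.20 (SE 0.11) and the cytokine IL1A at -0.52 (SE 0.32).

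The lists on growth, adhesion and movement were bounded about as closely as expressed genes in general. The 95% interval lay within 1.5-fold for 21 of 22 S phase genes, all 22 G2 and M phase genes, all 23 integrin and fibronectin adhesion genes and 23 of 25 protrusion and actin genes, beside 96.1% of the genes with a mean log2 CPM over 3 and 72.7% of all genes. Their medians were 0.01, 0.04, 0.05 and 0.02. Some other lists were bounded less closely. The interval lay within 1.5-fold for 12 of 26 amino acid response genes and 22 of 39 interferon-stimulated genes. It did so for 12 of 20 melanocyte lineage genes and 10 of 20 NF-kB and inflammatory genes. The S phase gene outside the bound was UHRF1, an epigenetic regulator, at 45.2, 77.5 and 31.5 CPM in WT and 77.2, 34.2 and 21.5 CPM in ΔADAM. The G2 and M phase genes were lower in WT for 21 of 22 in experiment 1, and higher for all 22 in experiment 2 and 17 in experiment 3. The proliferation marker MKI67 had 401, 364 and 340 CPM in WT and 444, 322 and 282 CPM in ΔADAM (log2 fold change 0.11, SE 0.13). RRM1 and KIF20A were at 0.09 and 0.07, the focal adhesion gene TNS3 at 0.11 and the integrin ITGB8 at 0.18. EVL and WASF3, actin regulators below 1 CPM in every library, were the other exceptions to the bound.

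The remaining lists had medians between -0.05 and 0.10, with 0 members called. These were the serum response, hypoxia and glycolysis, p53 target, heat shock, endoplasmic reticulum chaperone and mitochondrially encoded genes. Heat shock genes were lower in WT for 11 of 13 genes in experiment 1 and higher for 11 and 12 of 13 in experiments 2 and 3. VEGFA, the angiogenic factor, followed the amino acid response genes in its signs, with differences of 0.39, -0.32 and -1.03 and a fitted value of -0.30 (SE 0.26) that ran from -0.73 without WT of experiment 1 to -0.0041 without ΔADAM of experiment 3. CNN1 and EGR2 were at 0.71 (SE 0.49) and 0.64 (SE 0.47), at levels around 1 CPM or less.

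**Figure D4:**
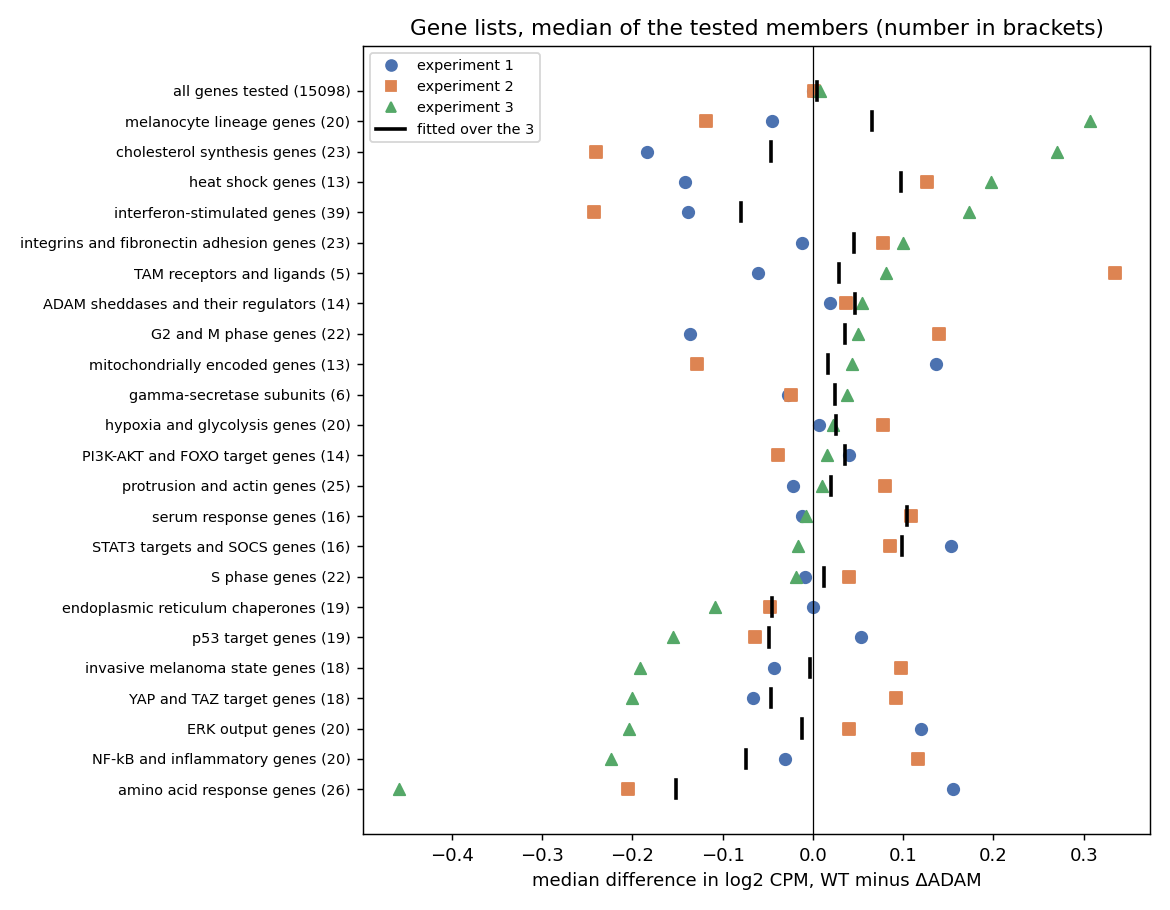
Median difference in log2 CPM, WT minus ΔADAM, of the tested members of the gene lists other than cell type markers, and of all genes. Symbols give the experiment and a black bar the value fitted over the 3. The lists are ordered by experiment 3. Experiments 1 and 2 lie on the other side of 0 from experiment 3 for cholesterol synthesis, interferon-stimulated and melanocyte lineage genes, and the bars lie between -0.15 and 0.10.

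The gene with the smallest p was XIRP1, an actin-binding protein of striated muscle (chr3:39183210-39192596, minus strand). It is named after its values were seen, since its mean level is under the 1 CPM asked of the leading genes. XIRP1 had 1.26, 2.54 and 1.20 CPM in WT and 0.0590, 0.265 and 0.0348 CPM in ΔADAM, from 96 and 9 estimated counts in all. The libraries did not overlap, and the log2 fold change was 3.86 (95% interval 2.73 to 4.9997, unadjusted p = 1.25e-05, adjusted p = 0.189 with edgeR). ΔGS had 1.09, 1.07 and 0.656 CPM, and GFP 0, 0 and 0.0506 CPM. DESeq2 called XIRP1 with an adjusted p of 0.000229, and edgeR without the filter on low counts with an adjusted p of 0.00492. The level is near the limit of what these depths can measure.

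Among protein-coding genes with at least 1 CPM on average that were higher in WT in all 3 experiments, the 12 with the smallest p were EHMT2, AC006064.6, DDR1, ARHGAP45, WIPF3, DUSP10, AC012213.5, ABCB9, GGT1, ASB4, WDR26 and NR4A3. Their unadjusted p ran from 0.000523 to 0.0232 with an adjusted p of 1 for each in edgeR, so none was called. WDR26, a subunit of a ubiquitin ligase, was the most highly expressed, at 210, 215 and 205 CPM in WT and 184, 186 and 166 CPM in ΔADAM. Its libraries did not overlap, and its log2 fold change was 0.23 (SE 0.09). DUSP10, a phosphatase of the stress kinases p38 and JNK, had 50.2, 71.5 and 47.9 CPM in WT and 46.9, 58.5 and 37.0 CPM in ΔADAM (log2 fold change 0.25, SE 0.09). NR4A3, an orphan nuclear receptor induced early by stimuli, had 8.13, 16.7 and 18.3 CPM in WT and 8.08, 12.3 and 11.97 CPM in ΔADAM (log2 fold change 0.39, SE 0.15). WIPF3, an actin regulator, had 4.61, 6.02 and 6.04 CPM in WT and 3.54, 4.504 and 4.24 CPM in ΔADAM, without overlap. The lysosomal transporter ABCB9 and the glutathione enzyme GGT1 had log2 fold changes of 0.27 (SE 0.10) and 0.48 (SE 0.18), and ASB4, near 1 CPM, 0.85 (SE 0.31). AC006064.6 and AC012213.5, named only by clone, were at 0.82 (SE 0.25) and 1.16 (SE 0.41).

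The 12 leading genes that were lower in WT in all 3 experiments were AC025283.2, AC116366.3, COL11A2, PIGW, ESR2, NXF2B, COMMD3-BMI1, HHLA1, ANKRD29, TDO2 and 2 genes of multicopy families that are not described here. ESR2, an oestrogen receptor, had 1.81, 1.22 and 1.07 CPM in WT and 2.21, 2.65 and 2.05 CPM in ΔADAM, without overlap (log2 fold change -0.76, SE 0.22, unadjusted p = 0.00552, adjusted p = 1 with edgeR). ANKRD29 had 3.24, 2.54 and 1.73 CPM in WT and 4.10, 3.84 and 3.34 CPM in ΔADAM, and HHLA1 3.35, 3.21 and 2.49 CPM and 4.43, 4.59 and 3.51 CPM. None of the 10 named exceeded 20 CPM in any WT or ΔADAM library. Several of them share sequence with other genes, so that the assignment of their reads is uncertain. COMMD3-BMI1 is a read-through of 2 neighbouring genes, and NXF2B is a near-identical copy of NXF2. AC116366.3 had 7.745, 11.4 and 11.4 CPM in WT and 14.5, 19.9 and 18.5 CPM in ΔADAM. AC025283.2 had no counts in the 3 WT libraries and 2.36, 1.63 and 1.496 CPM in ΔADAM, which makes it at least 36.8-fold lower in WT when 3 counts over the WT group stand for 0. It also had no counts in the GFP library of experiment 1 and 0.350 CPM in ΔGS of experiment 3.

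The difference at 5 of the leading genes shrank or changed sign when reads assigned to other copies of the same gene were added. EHMT2, a histone methyltransferase, DDR1, a collagen receptor, and COL11A2, a collagen chain, lie on chromosome 6, PIGW, an enzyme of GPI-anchor synthesis, on chromosome 17 and TDO2, a tryptophan-degrading enzyme, on chromosome 4. The transcript set also held copies of each on sequences outside the primary assembly, and those copies took 75.8% of the counts of EHMT2, 74.0% of DDR1, 74.5% of COL11A2, 52.0% of PIGW and 39.6% of TDO2. EHMT2 had 27.8, 38.4 and 38.0 CPM in WT and 15.6, 26.1 and 25.1 CPM in ΔADAM on the primary assembly, a log2 fold change of 0.66 (SE 0.14). With the copies it had 98.3, 117 and 120 CPM in WT and 100.1, 117 and 97.1 CPM in ΔADAM, a log2 fold change of 0.09. DDR1 went from 0.50 to 0.10 and TDO2 from -0.77 to -0.21, and COL11A2 went from -0.95 to 0.05 and PIGW from -0.53 to 0.10. Adding the copies was an alternative chosen after the data had been seen. Of the 158 genes at an unadjusted p of at most 0.05, 13 had over 10% of their counts on such copies, as did 514 of all genes tested, and 144 kept an unadjusted p of at most 0.05 with the copies added.

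**Figure D5:**
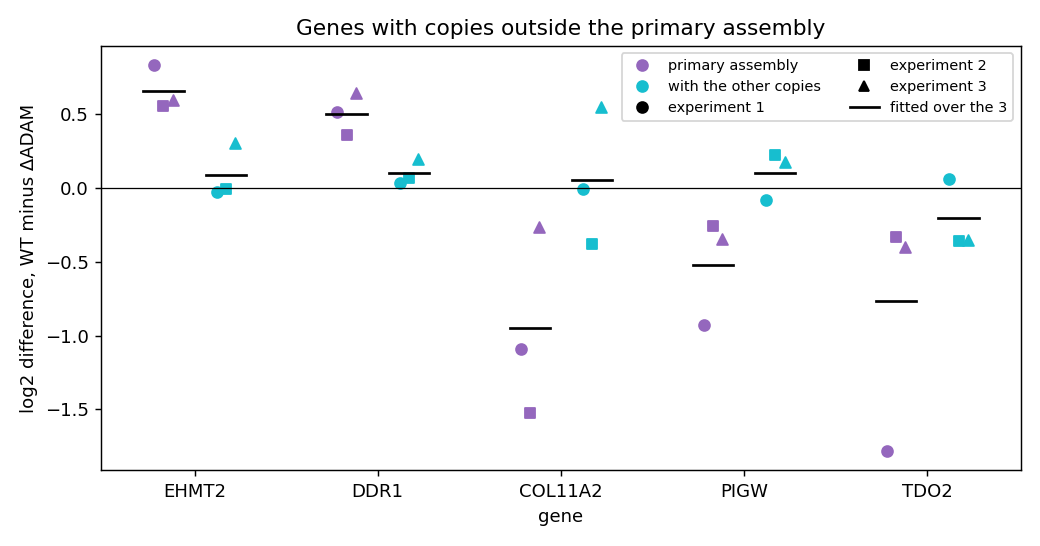
Difference in log2 CPM, WT minus ΔADAM, at 5 genes with copies outside the primary assembly, counted on the primary assembly (purple) and with the copies added (cyan). Symbols give the experiment and black lines the fitted log2 fold change. EHMT2 moves from 0.66 to 0.09 and COL11A2 from -0.95 to 0.05.

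At the level of transcripts, 0 of 69182 (0%) were called in edgeR, and 1128 (1.63%) had an unadjusted p of at most 0.05. Of these 1128, 659 had at least 1 of the 6 libraries at 0 counts. The genes of the leading transcripts were not called, with log2 fold changes from -0.05 (FOXO3) to 0.25 (LRRC17). FAM50B-201 had 6.60, 5.92 and 6.98 CPM in WT and 0.774, 1.35 and 0.536 CPM in ΔADAM, or 38.5% to 46.8% and 3.02% to 10.2% of its gene, while the gene's log2 fold change was 0.11. VOPP1-207 had 7.22, 8.58 and 23.0 CPM in WT and 28.9, 35.0 and 52.1 CPM in ΔADAM, with the gene at 0.0052. FOXO3-201, a transcript of the AKT-regulated factor FOXO3, took 12.8% to 28.8% of its gene in WT and 0.0879% to 1.05% in ΔADAM. In ΔGS it took 0.551%, 1.32% and 29.4%, so libraries given the same plasmid ranged as widely. CAST-223 and LRRC17-202 had log2 fold changes of 1.18 (SE 0.24) and 1.03 (SE 0.23).

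YY1AP1-209 was estimated at 6.30 to 8.24 CPM in WT and at 0, 0 and 0.0715 CPM in ΔADAM. COPS4-202, LMNB2-202 and TYSND1-203 had no counts in the WT libraries and were at least 21.6-fold, 25.5-fold and 31.3-fold lower there by the same 3-count bound, and NSD2-201 was at 0 in 2 of 3 WT libraries and at 2.61 to 4.602 CPM in ΔADAM. The genes of all 5 lay between -0.04 and 0.08 on the log2 scale. All 10 leading transcripts had an adjusted p of 1 with edgeR and were called by DESeq2, which called 293 transcripts (116 higher, 177 lower) from the same 69182. Many of these calls had log2 fold changes too large to be read as sizes of a difference. Examples with DESeq2 are -29.97 for WLS-205, -24.2 for GAPDH-202 and 22.97 for NARS-204. DESeq2 ran with default settings that can leave features out of the adjustment, so its adjusted p need not cover all 69182. The split of a gene's reads among transcripts is kallisto's estimate, and its uncertainty is not in the tables used here.

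TYRO3 itself was counted almost wholly as TYRO3-202, a protein-coding transcript, which took 92.3%, 92.7% and 91.3% of the gene in WT and 93.0%, 93.1% and 91.3% in ΔADAM, against 52.2% to 69.4% in GFP. Its log2 fold change was 0.19 (SE 0.36). TYRO3-204, a short transcript of 547 bases annotated for nonsense-mediated decay, was higher in WT in each experiment, at 44.9, 15.5 and 12.8 CPM against 18.7, 5.51 and 7.04 CPM in ΔADAM. Its log2 fold change was 1.25 (SE 0.35, unadjusted p = 0.0118, adjusted p = 1 with edgeR), and it made up 0.884% to 1.54% of TYRO3 counts in WT and 0.461% to 0.585% in ΔADAM. ΔGS had 27.2, 6.64 and 19.03 CPM, and no counts were assigned to it in the GFP libraries after rounding. None of the 517 stretches of 31 bases in TYRO3-204 overlaps a ΔADAM codon, as it starts beyond them (chr15:41571103-41573467). The other 5 tested TYRO3 transcripts had log2 fold changes between 0.03 and 0.47. Among these, TYRO3-207, annotated as a retained intron, had 25.9 to 65.5 CPM in WT and 14.6 to 65.4 CPM in ΔADAM. In GFP it had 0.595 to 1.13 CPM. How reads from the plasmid were divided among the TYRO3 transcripts, and why TYRO3-204 differed, was not tested.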

How the data were processed

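The authors deposited 1 kallisto table per library with estimated counts and TPM for 188753 transcripts. The labels and the study's methods name FastQC 0.11.9, Trimmomatic 0.33, kallisto 0.46.0, GRCh38 and a TruSeq Stranded mRNA kit read as pairs, and each library is deposited on its own, with no batch correction in these columns. Of the transcripts, 169797 matched GENCODE 29 by identifier (97.4% to 97.5% of each library's counts), and their deposited estimated counts were summed over 35579 genes and rounded. The paper names an Ensembl transcriptome for kallisto. Identifiers were matched without version numbers, so a GENCODE 29 transcript can differ in sequence from the one quantified. TYRO3-201 had 8032 bases as quantified and 8207 in GENCODE 29. The deposited TPM values were used to compare levels between genes and, as log2(TPM + 1), in limma.

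Genes and transcripts were tested with edgeR 4.0.16 in R 4.3.3 (quasi-likelihood test, TMM scaling, low counts removed by filterByExpr at its thresholds of 10 counts per library and 15 in total). All 12 libraries entered the fit, with group and experiment as terms, and the contrast was WT minus ΔADAM. Within-experiment differences are of log2 CPM with a prior count of 1. The experiment number in the labels pairs the libraries: deviations of WT and ΔADAM from their group means correlated at 0.761, 0.777 and 0.582 in experiments 1, 2 and 3. Nothing in the labels says that the experiments were independent cultures, so p-values measure the spread between these libraries.

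The study's thresholds were used (its tool was DESeq2, here an alternative), a fold change over 1.5 and a Benjamini-Hochberg adjusted p of at most 0.05 over all features. DESeq2's default settings can leave some features out of its adjustment. Named were the TAM genes, the proteases, up to 12 uncalled genes and 5 uncalled transcripts each way with the smallest p (mean of at least 1 CPM, same sign in 3 experiments), list members with the smallest p and further members that show a list's range. The comparison, gene lists and rules were chosen with earlier results of these data known, and no list was tested as a set. The fitting steps were tested on simulated counts. The alternatives were DESeq2 1.42.0, limma 3.58.1, other designs, scalings and filters, and leaving out single libraries.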

Additional observations from a re-analysis of the deposited data

How the results depend on the processing

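The absence of calls held in every edgeR and limma fit but those named here. With experiments 2 and 3 alone 1 gene was called (KBTBD11, higher in WT), without the filter on low counts 2 (XIRP1 higher, AC025283.2 lower), and with DESeq2 4 (XIRP1 higher, and AC025283.2, AD000671.1 and AC048338.1 lower). DESeq2 called 293 transcripts where edgeR and limma called 0, and the cause was not tested. Many of those calls had log2 fold changes too large to be read as sizes. Among the genes DESeq2 called, AC048338.1 was at -18.98. Without the replicate block, that is with the experiments unpaired, 0 genes and 0 transcripts were called, as with it, 79 genes had an unadjusted p of at most 0.05 in place of 158, and TYRO3 was at 0.13. Leaving out 1 library at a time also gave 0 genes and 0 transcripts called, with TYRO3 between 0.07 and 0.44 (the lowest without WT of experiment 2, the highest without ΔADAM of experiment 1), and 606 genes had an unadjusted p of at most 0.05 without the WT library of experiment 1.

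Some uncalled log2 fold changes turned, and the cause was not tested. With the copies outside the primary assembly added (chosen after seeing the data), COL11A2 was at 0.0519 and PIGW at 0.103. With limma on log2 TPM at a pseudocount of 1, ARHGAP45 was at -0.0789, AXL at 0.00201, PROS1 at -0.0120 and MKI67 at -0.0309, and at a pseudocount of 0.1 they were at -0.0866, 0.000741, -0.0123 and -0.0315. AXL was at 0.0332 without the block, 0.0266 with a term for experiment 1 against 2 and 3 (GAS6 0.00579) and 0.0283 with 6 libraries and no block, and HMGCS1 was at 0.0507 with experiments 2 and 3 alone. Over the fits that leave out 1 library, MERTK ran from -0.0186 to 0.416, AXL from -0.160 to 0.196, GAS6 from -0.178 to 0.151, PROS1 from -0.0162 to 0.0548, DUSP6 from -0.203 to 0.0313, MKI67 from -0.0293 to 0.238, DCT from -0.221 to 0.519, HMGCS1 from -0.430 to 0.185, ADAM17 from -0.191 to 0.0254, IFIT1 from -0.357 to 0.195 and MITF from -0.00616 to 0.503. Leaving out 1 library moved the log2 fold change of a further 32 of the 63 named genes other than TYRO3 by over 1.5 times without turning it, among them IL1A (-0.88 without WT of experiment 1 to -0.19 without WT of experiment 3), CNN1 (0.18 to 1.29 without ΔADAM of experiments 2 and 3), AJUBA (-0.44 to -0.07 without the same libraries), NR4A3 (0.24 without WT of experiment 3 to 0.58 without WT of experiment 1) and CHAC1 (-0.15 to -1.50 without the same libraries). With 3 libraries a group, a difference in a gene of few counts could go undetected.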
